A study of Homo sapiens with 14 samples.

Results

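The comparison described here isolates the YAP-binding motif of an MRTFB that still binds SRF: MRTFB dN dPY compared with MRTFB dN in MCF-10A cells, an immortalised, non-tumorigenic line of human mammary epithelium. MRTFB dN is MRTFB made unable to bind G-actin, and MRTFB dN dPY carries in addition the dPY change, which removes YAP binding. Both forms were delivered by retrovirus and overexpressed, and cells were collected 2 days after infection. The same dPY change was also made in a form that cannot bind SRF because of the substitution Y305A, so MRTFB dN Y305A/dPY compared with MRTFB dN Y305A serves as the same deletion without SRF binding, in separate libraries. Empty pMSCV Hygro and pMSCV Puro vectors and YAP 5SA, a hyperactive YAP, complete the 14 libraries, 2 for each of 7 groups. The labels do not say whether the 2 libraries of a group are separate cultures, so p-values measure only the spread between these libraries, which may be technical.

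Loci of the table that carry a gene name and reached 1 FPKM (fragments per kilobase of transcript, scaled to the library's mapped fragments) in at least 2 of the 4 libraries of MRTFB dN and MRTFB dN dPY were taken: 11476 of 27543 named loci and of 34071 loci in all. At the edge of this rule, GK entered with a second highest value of 1.0003 FPKM and PROSER2 fell outside it with 0.99976 FPKM. Of the 11476 loci, 8944 stood at 1 FPKM or more in all 4 libraries, 79 passed through MRTFB dN alone and 51 through MRTFB dN dPY alone. MRTFB dN dPY replicate 1 holds no value above 0 from a point on chromosome 7 (after PPIA) onward and on chromosomes 8, 9 and X. These zeros were treated as missing, which leaves 1606 of the loci with 1 library in that group and 9870 with all 4 values.

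MRTFs are coactivators of SRF, a transcription factor that binds promoters of actin and muscle contractile genes. Free G-actin holds MRTFs inactive, and an MRTF that cannot bind it is active without a signal. YAP, the coactivator that the Hippo kinases restrain, binds DNA through TEAD factors and drives genes such as CTGF, CYR61 and ANKRD1 together with genes of cell division. A PY motif is a short proline-tyrosine stretch that is recognised by the WW domains of YAP.

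The libraries held epithelial RNA. In the 4 compared libraries the basal keratin KRT5 stood between 748 and 1085 FPKM, the adherens junction cadherin CDH1 between 250 and 317, EPCAM between 125 and 199, and the basal factor TP63 between 1.84 and 4.39. KRT18 was listed at 0 in replicate 1 of MRTFB dN Y305A and of MRTFB dN Y305A/dPY and at 16608 and 12151 FPKM in replicate 2, so an isolated 0 in this table can be a failed estimate. Of the leukocyte markers, TYROBP was listed at 0 in all 4 compared libraries and PTPRC and CD3E were at most 0.0195 and 0.0472 FPKM. The 10 leukocyte markers summed to 388 to 449 FPKM with MRTFB dN and 334 to 346 with MRTFB dN dPY, nearly all of it CD68, a lysosomal protein that epithelium also makes. FPKM carries no counts, so absolute depth is unknown. From the lowest values, depth relative to MRTFB dN replicate 1 was 1.19 for MRTFB dN replicate 2, 0.877 for MRTFB dN dPY replicate 1 and 1.33 for MRTFB dN dPY replicate 2.

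The introduced transcript was at a like level with and without the PY motif. MKL2 (the MRTFB gene in this table) was at 299.5 and 165 FPKM in replicates 1 and 2 of MRTFB dN and at 286 and 171 in those of MRTFB dN dPY (log2 difference -0.00 ± 0.15, SE, adjusted p = 0.998). In both groups replicate 1 was the higher library. A value per gene cannot show the deletion itself. SRF, TEAD1, TEAD2, TEAD3, TEAD4, YAP1 and WWTR1 (the YAP paralogue TAZ) did not pass the test either, and the 11 factor genes tested had a median of 0.03, from -0.23 to 0.27, with 0 calls in limma and 0 at an unadjusted p under 0.05.

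Deleting the PY motif changed few loci past the threshold. Differences were taken on log2(FPKM + 1) between libraries of the same replicate number, fitted with limma over the 8 MRTFB libraries, and called at an adjusted p under 0.05 over all 11476 loci. In MRTFB dN dPY 28 loci were higher (0.244% of loci tested) and 34 were lower (0.296%), 62 in all (0.54%), while 1243 (10.8%) had an unadjusted p under 0.05. The median change of all loci was -0.01, and 93.1% changed by less than 1.5-fold on FPKM + 1. Calls were made from these same values, so the separation of groups describes the called loci and is no separate support. Groups did not overlap for 27 of the 27 higher loci with all 4 values and for 31 of the 32 lower ones. Of all loci with 4 values the shares were 13.6% and 14.5%. SERPINA3 (alpha-1-antichymotrypsin) was the exception, with 11.5 and 67.4 FPKM in the MRTFB dN libraries and 4.84 and 19.0 in those of MRTFB dN dPY, where each replicate of MRTFB dN dPY lay below the MRTFB dN library of its number. Of the 62, 3 higher and 8 lower loci passed the filter through 1 group only, so some difference was needed for them to enter.

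**Figure D1:**
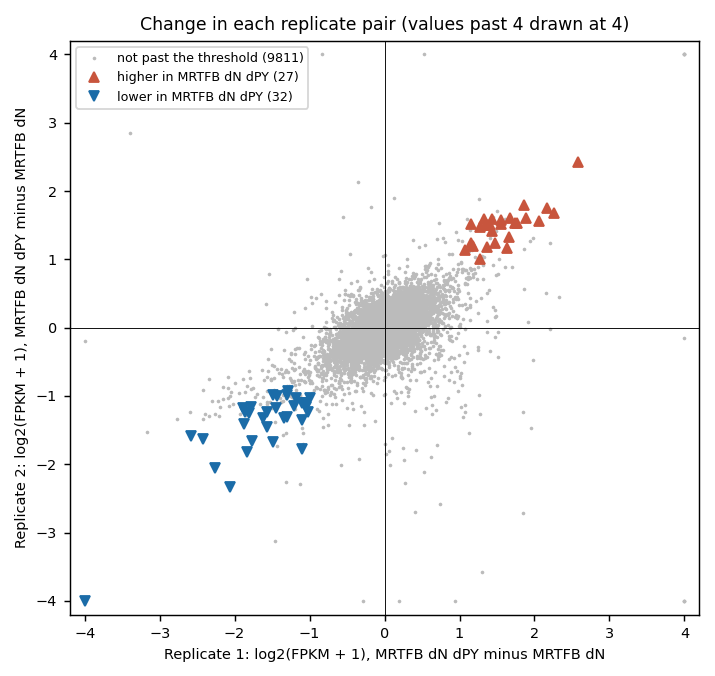
Each point is 1 of 9870 loci with a value in all 4 libraries, plotted by its difference in log2(FPKM + 1), MRTFB dN dPY minus MRTFB dN, in replicate pair 1 (horizontal) and pair 2 (vertical); upward triangles are the 27 higher and downward triangles the 32 lower loci past the threshold. The called loci, which were selected on these same differences, lie along the diagonal in both corners. Over all points Pearson's r between pairs is 0.45, across loci, which are not independent replicates.

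The number called depended on how the replicate pairs entered the fit. The replicate differences of MRTFB dN and MRTFB dN dPY correlated with r = 0.70 across 9870 loci, those of MRTFB dN Y305A and MRTFB dN Y305A/dPY with r = 0.80, and those across the SRF change with r = 0.36 to 0.47. A block within each SRF background, chosen after this was seen, called 366 loci (3.19%), 144 higher (1.25%) and 222 lower (1.93%), and the 28 higher and 34 lower loci were among them. The 4 libraries alone called 403 of 9870 loci (4.08%), 168 higher (1.7%) and 235 lower (2.38%). With no replicate block 4 were higher and 3 lower. Without MRTFB dN dPY replicate 1, the library that is partly empty, 3 were higher and 5 lower, and leaving out any other of the 8 libraries gave 0 to 6 higher and 2 to 6 lower. At the threshold stood CTGF and TTK (adjusted p = 0.0499 for both) just inside and FAM83D (adjusted p = 0.0503) and KIF22 (adjusted p = 0.0507) just outside.

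CTGF, which encodes a secreted matricellular protein and is the most used readout of YAP and TEAD, fell. It stood at 4712 and 4472 FPKM in the MRTFB dN libraries and 2255 and 2078 in those of MRTFB dN dPY, so 47.9% and 46.5% of its level remained in the 2 pairs. The groups were far apart relative to the spread between replicates (log2 difference -1.08 ± 0.15, adjusted p = 0.0499). Even so, both MRTFB dN dPY libraries stood well above the Puro vector, at 1.12 and 6.54 FPKM, and above YAP 5SA, at 74.1 and 37.0. Of 18 alternative settings CTGF stayed past the threshold in 4, with log2 differences from -1.13 to -1.04 and adjusted p from 0.0243 to 1.

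Without SRF binding the same deletion lowered CTGF further in proportion. MRTFB dN Y305A libraries held 213 and 184 FPKM and MRTFB dN Y305A/dPY libraries 21.2 and 24.6, 9.99% and 13.4% of the level (log2 difference -3.06 ± 0.15, adjusted p = 0.0026). The difference between both effects was 1.97 ± 0.21 with an adjusted p of 0.085, which missed the threshold, and passed it with the block within each background (adjusted p = 0.0428). This comparison called 0 loci higher and 3 lower (0.0261%): CTGF, IGFL1 and DAW1, of which IGFL1 and DAW1 were chosen after their values were seen. IGFL1, a secreted epithelial ligand, stood at 1510 and 576 FPKM without the deletion and 74.2 and 14.5 with it (-4.77, adjusted p = 0.0026). At an unadjusted p under 0.05 limma gave 492 higher and 982 lower loci there, and the block within each background called 97 (0.845%), 13 higher (0.113%) and 84 lower (0.732%).

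The promoters of CTGF and ANKRD1 are shown because both genes are standard TEAD targets with different calls here. They are the 250 bases upstream of the transcript start in RefSeq (GRCh38.p14, minus strand for both), CTGF at chr6:131951373-131951622 and ANKRD1 at chr10:90921088-90921337, with matches to the TEAD motif GGAATG in capitals. Both strands were searched.
CTGF: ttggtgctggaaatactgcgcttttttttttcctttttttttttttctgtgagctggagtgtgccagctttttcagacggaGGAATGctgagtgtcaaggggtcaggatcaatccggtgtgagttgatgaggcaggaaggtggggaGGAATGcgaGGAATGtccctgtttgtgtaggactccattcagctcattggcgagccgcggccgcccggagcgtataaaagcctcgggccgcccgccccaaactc
ANKRD1: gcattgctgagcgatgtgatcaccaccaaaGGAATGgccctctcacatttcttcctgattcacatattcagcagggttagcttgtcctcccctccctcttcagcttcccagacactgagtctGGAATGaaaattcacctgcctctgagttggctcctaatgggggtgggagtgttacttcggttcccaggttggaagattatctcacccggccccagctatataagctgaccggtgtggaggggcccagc
CTGF holds 3 matches, starting 169, 104 and 95 bases upstream of the start, and ANKRD1 holds 2, at 220 and 128. Of 35116 RefSeq promoters in the same window, 11.9% hold GGAATG on either strand. The share was 31.6% of 38 promoters of the listed YAP/TEAD targets, 13.3% of 45 promoters of the lower loci and 15.4% of 26 promoters of the higher loci. These shares describe letters, not binding.

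The other matricellular and stress-responsive TEAD targets were lower in both pairs without passing the test over the 8 libraries. CYR61, a relative of CTGF, stood at 2760 and 2491 FPKM in the MRTFB dN libraries and 1825 and 1487 in those of MRTFB dN dPY (-0.67 ± 0.17, adjusted p = 0.212). ANKRD1, an ankyrin repeat protein of muscle and stressed epithelium, stood at 982 and 639 FPKM against 626 and 454 (-0.57 ± 0.24, adjusted p = 0.474). For CYR61 the groups did not overlap, and for ANKRD1 the higher MRTFB dN dPY library lay just below the lower MRTFB dN library. TGFB2, a TGF-beta ligand in a locus shared with TGFB2-OT1, stood at 54.6 and 53.2 FPKM against 34.2 and 25.9 (-0.83 ± 0.16, adjusted p = 0.0929), and passed with the block within each background and in the 4 libraries alone. EDN1, the vasoconstrictor endothelin 1 (the more abundant of 2 loci of that name), stood at 434 and 477 FPKM against 250.2 and 245 (-0.88 ± 0.39, adjusted p = 0.502), and passed in the 4 libraries alone.

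Not all listed targets leaned the same way. AXL, a receptor tyrosine kinase, stood at 8.78 and 11.2 FPKM in the MRTFB dN libraries and 15.7 and 14.9 in those of MRTFB dN dPY (0.58 ± 0.33, adjusted p = 0.601). AMOTL2, an angiomotin that restrains YAP, and the kinase gene LATS2 differed by 0.04 and -0.22 and did not pass. Of 40 listed YAP/TEAD targets 36 were tested and 4 were under the filter. CTGF and BIRC5 fell and none rose, and BIRC5 is also named below among genes of cell division. This is 2 of 36 beside 0.296% of all loci, and the median was -0.19 against -0.01 for all loci. That median turned to 0.01 without MRTFB dN replicate 2. The count lower was 5 of 36 with the block within each background (beside 1.93% of all loci) and 7 in the 4 libraries alone (2.38%), 1 with median-of-ratios scaling and in all 14 libraries, and 0 with a pseudocount of 0.1, no filter, no replicate block or the zeros of the empty stretch kept. Leaving out 1 library gave 0 to 1.

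**Figure D2:**
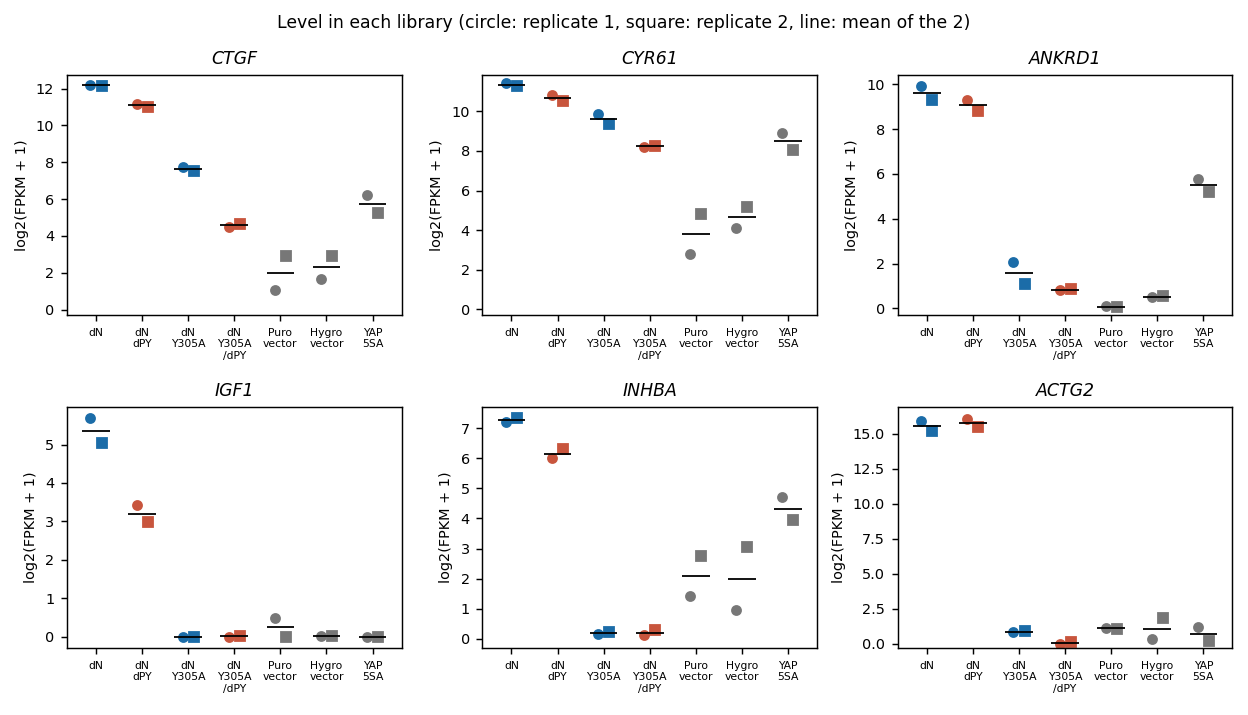
Level of 6 genes as log2(FPKM + 1) in each of the 14 libraries by group; circles are replicate 1, squares replicate 2 and lines the mean of both. CTGF falls with the dPY change in both SRF backgrounds, IGF1 and INHBA fall where SRF binding is kept and lie near 0 where it is not, and ACTG2 lies between 36375 and 68490 FPKM in the 4 libraries with SRF binding.

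Contractile genes that SRF drives stayed at very high levels. ACTG2, the smooth muscle gamma actin, stood at 59843 and 36375 FPKM in the MRTFB dN libraries and 68490 and 46017 in those of MRTFB dN dPY (0.27 ± 0.25, adjusted p = 0.766). TAGLN (transgelin, in a locus with PAFAH1B2 and SIDT2), MYL9 (a myosin light chain), TPM1 (tropomyosin) and VCL (vinculin) differed by -0.17, 0.13, -0.08 and -0.14, none past the threshold. ACTA2, the smooth muscle alpha actin, stood at 52274 and 30943 FPKM against 27858 and 16815 (-0.89 ± 0.42, adjusted p = 0.517). ACTA2 was lower in both pairs and passed the test only with the block within each background. ACTC1, the cardiac actin, differed the other way without passing, at 1930.1 and 2176 FPKM against 3034 and 2707 (0.48 ± 0.13, adjusted p = 0.231).

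Of 38 listed MRTF/SRF targets 36 were tested, 1 fell (beside 0.296% of all loci) and none rose, with a median of -0.06. The count lower was 2 with the block within each background (beside 1.93% of all loci) and at most 1 under the other alternatives. The one that fell was FHL1, a LIM protein of muscle, at 12.1 and 9.41 FPKM with MRTFB dN and 0.931 in MRTFB dN dPY replicate 2, with no value in replicate 1 (-2.44 ± 0.20, adjusted p = 0.0199). FHL1 lies in the empty part of the table, so its change rests on 1 library. In all 4 libraries without SRF binding FHL1 stayed below 0.4 FPKM.

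IGF1 and INHBA, which encode secreted growth factors, fell with the PY deletion. IGF1, insulin-like growth factor 1, stood at 50.5 and 31.9 FPKM in the MRTFB dN libraries and 9.71 and 6.92 in those of MRTFB dN dPY, a fall to 19.2% and 21.7% (-2.16 ± 0.20, adjusted p = 0.0198). In the 4 libraries without SRF binding IGF1 was at or below 0.01 FPKM. IGFBP5, a binding protein for IGF1, stood at 2.42 and 1.58 FPKM against 0.23 and 0.364 and missed the threshold (-1.20 ± 0.18, adjusted p = 0.0575). Of the 10 IGF and IGF-binding genes 8 were tested and 1, IGF1, passed (beside 0.296% of all loci lower). With the block within each background IGF1 and IGFBP5 passed (beside 1.93%).

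INHBA encodes the subunit of activin A, a TGF-beta family ligand. It stood at 145 and 159.8 FPKM in the MRTFB dN libraries and 63.5 and 77.7 in those of MRTFB dN dPY (-1.10 ± 0.13, adjusted p = 0.0353), and the groups did not overlap. The name INHBA is shared with another locus, and these values are of the most abundant. FST, which encodes the activin inhibitor follistatin, stood at 8.90 and 8.95 FPKM against 3.29 and 3.78 (-1.13 ± 0.21, adjusted p = 0.0959). Of 24 TGF-beta, activin and BMP genes 21 were tested, INHBA fell (1 of 21, beside 0.296% of all loci) and none rose, and with the block within each background 3 were lower (beside 1.93%). Without SRF binding INHBA was at most 0.217 FPKM, while FST was 3.25 and 1.78 FPKM with MRTFB dN Y305A and 0.680 and 0.273 with MRTFB dN Y305A/dPY.

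Most listed mitosis genes were lower in MRTFB dN dPY, and few passed the test. Of 25 listed genes of mitosis 5 fell past the threshold (AURKB, BUB1, TTK, KIF20A and KIF2C), beside 0.296% of all loci, and none rose. The median change was -1.34, against -0.01 over all loci, and for 24 of the 25 both MRTFB dN dPY libraries lay below both MRTFB dN libraries, beside 14.5% of all loci. The count past the threshold depended on the fit: 18 of 25 with the block within each background (beside 1.93% of all loci lower) and 21 in the 4 libraries alone (2.38%), but 0 with a pseudocount of 0.1, with no filter, with no replicate block, in all 14 libraries and with the zeros of the empty stretch kept. Leaving out 1 library gave 0 to 2. The exception was the locus of CENPA, a centromeric histone, which also carries SLC35F6 and stood at 39.5 and 35.0 FPKM against 37.8 and 39.4.

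The kinases of the spindle checkpoint and of cytokinesis are examples. AURKB, the kinase of the chromosomal passenger complex, stood at 5.73 and 8.07 FPKM in the MRTFB dN libraries and 0.827 and 2.42 in those of MRTFB dN dPY (-1.64 ± 0.21, adjusted p = 0.0385). BUB1, a checkpoint kinase at kinetochores, stood at 3.60 and 5.48 FPKM against 0.686 and 1.86 (-1.31 ± 0.14, adjusted p = 0.0261). KIF20A, a kinesin of cytokinesis, stood at 4.72 and 8.43 FPKM against 0.540 and 3.18 (-1.53 ± 0.20, adjusted p = 0.0385). In all 3 the replicates differed within each group and moved in parallel. CDK1, the mitotic cyclin-dependent kinase, changed most in the list, with 18.9 and 19.5 FPKM against 1.91 and 7.15, and missed the threshold (-2.05 ± 0.36, adjusted p = 0.0808). MKI67, the gene of the proliferation antigen Ki-67, stood at 5.38 and 5.21 FPKM against 0.505 and 2.03 (-1.56 ± 0.27, adjusted p = 0.0808).

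Most of these genes lay lower in replicate pair 1. The list's median was -1.71 in pair 1 and -1.10 in pair 2, and 23 of the 25 genes were lower in pair 1. Without SRF binding the same genes were also lower: 25 of 25 had a negative difference, with a median of -0.98, and the pairs had medians of -0.81 and -1.19. None of the 25 passed there (4 with the block within each background, beside 0.732% of all loci lower), and none passed in the test of the difference between both effects. Summed over the list, FPKM was 248 and 296 with MRTFB dN, 90.7 and 152 with MRTFB dN dPY, 328 and 456 with MRTFB dN Y305A, and 208 and 212 with MRTFB dN Y305A/dPY. The sums were 365.5 and 569.8 with Puro vector and 148.4 and 362.5 with Hygro vector. MRTFB dN thus lay below the Puro vector and between the Hygro vector libraries. MRTFB dN dPY replicate 1 was also the shallowest of the 4 compared libraries, and the part of depth in the difference between pairs was not tested. In bulk RNA fewer cells of a kind and less RNA per cell cannot be told apart.

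**Figure D3:**
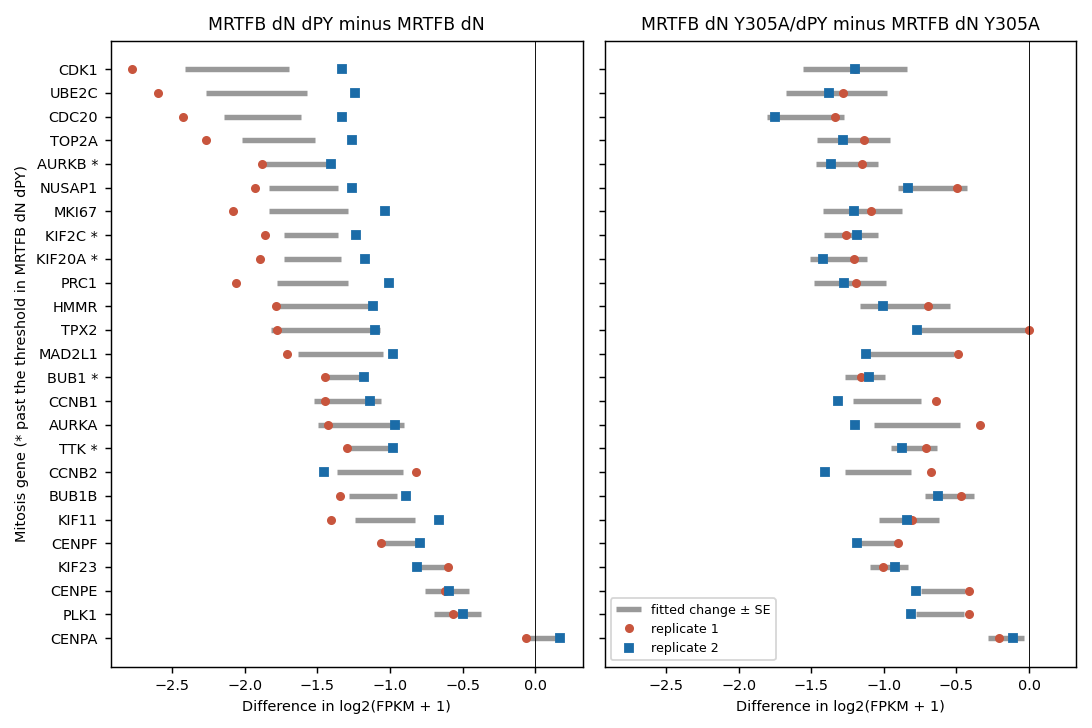
Difference in log2(FPKM + 1) of the 25 listed mitosis genes in MRTFB dN dPY minus MRTFB dN (left) and MRTFB dN Y305A/dPY minus MRTFB dN Y305A (right); circles are replicate pair 1, squares pair 2, grey bars the fitted change ± SE, and asterisks mark the 5 genes past the threshold on the left. All but CENPA lie left of 0 in both pairs on the left, and the circles there lie farther left than the squares for 23 genes.

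Some of these promoters are shown for the CCAAT box, a motif common in promoters of dividing cells, which binds NF-Y. They are the 250 bases upstream of the RefSeq start (GRCh38.p14), KIF20A at chr5:138178862-138179111 on the plus strand, AURKB at chr17:8210226-8210475 on the minus strand and BUB1 at chr2:110678064-110678313 on the minus strand. Capitals mark CCAAT or, on the opposite strand, ATTGG, and these genes were chosen because they hold it.
KIF20A: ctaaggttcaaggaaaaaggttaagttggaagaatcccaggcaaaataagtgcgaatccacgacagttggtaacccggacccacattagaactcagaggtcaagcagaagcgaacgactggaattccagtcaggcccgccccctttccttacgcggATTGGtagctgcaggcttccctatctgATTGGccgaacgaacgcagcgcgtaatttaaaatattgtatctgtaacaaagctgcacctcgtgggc
AURKB: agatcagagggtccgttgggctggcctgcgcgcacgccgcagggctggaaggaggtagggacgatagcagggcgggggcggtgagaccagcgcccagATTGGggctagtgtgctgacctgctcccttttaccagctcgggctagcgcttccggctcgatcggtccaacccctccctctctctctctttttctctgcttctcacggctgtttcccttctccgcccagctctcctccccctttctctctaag
BUB1: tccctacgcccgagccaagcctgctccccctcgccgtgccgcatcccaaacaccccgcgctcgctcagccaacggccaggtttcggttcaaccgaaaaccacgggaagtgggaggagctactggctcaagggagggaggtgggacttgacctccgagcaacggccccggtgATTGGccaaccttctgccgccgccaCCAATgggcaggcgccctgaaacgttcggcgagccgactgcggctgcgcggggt
Matches start 94 and 67 bases upstream in KIF20A, 153 in AURKB, and 79 and 54 in BUB1. On either strand the box was held by 87.0% of 23 promoters of the mitosis list, 71.4% of 28 promoters of the DNA replication list and 32.0% of all 35116 promoters. Among the lower loci as a whole it was 35.6% of 45 promoters, and among the higher loci 42.3% of 26. Both lists were drawn up from known cell cycle genes, so the shares describe those genes and not the change.

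Genes of DNA replication leaned the same way with no call. None of 26 listed genes passed in limma (22 at an unadjusted p under 0.05, beside 10.8% of all loci), and all 26 had a negative fitted change (median -0.98), and 21 of the 22 with 4 values did not overlap between groups (beside 14.5% of all loci). The count lower was 5 with the block within each background (beside 1.93% of all loci), 8 in the 4 libraries alone (2.38%) and 0 under the other alternatives. RRM2, a ribonucleotide reductase subunit, stood at 25.9 and 13.98 FPKM in the MRTFB dN libraries and 2.00 and 4.20 in those of MRTFB dN dPY (-2.35 ± 0.36, adjusted p = 0.0638). PCNA, the sliding clamp of replication, stood at 42.3 and 26.4 FPKM against 10.7 and 15.3 (-1.32 ± 0.26, adjusted p = 0.110). Every one of the 22 was lower in pair 1 than in pair 2 (medians -1.28 and -0.64). Without SRF binding all 26 were negative as well, with a median of -0.52.

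Other decreases included genes of cell division outside the mitosis list. MYBL2, the B-Myb transcription factor, stood at 17.9 and 18.2 FPKM in the MRTFB dN libraries and 2.17 and 5.40 in those of MRTFB dN dPY (-2.08 ± 0.24, adjusted p = 0.0320). TK1, thymidine kinase, fell from 40.7 and 42.5 FPKM to 6.78 and 13.0 (-2.03 ± 0.26, adjusted p = 0.0378). FOXM1, a transcription factor of mitotic genes, fell by 1.40 on the log2 scale, ZWINT (a kinetochore protein) by 1.47, SPAG5 (the spindle protein astrin) by 1.53 and BIRC5 (survivin) by 1.31. DIAPH3, a formin that builds actin filaments, stood at 22.6 and 18.9 FPKM against 7.70 and 8.97 (-1.22 ± 0.15, adjusted p = 0.0378).

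The 34 lower loci showed separate patterns in the libraries without SRF binding. Those libraries share the replicate block and the residual variance of the fit, and a locus near 0 in all of them adds little residual, so what follows describes the called loci and is no independent support. In the fit of the 4 compared libraries alone, all 27 higher and 32 lower loci with 4 values passed as well. That fit reuses the values that made the calls, has 1 residual degree of freedom and called 403 of 9870 loci. It is therefore no separate support either. Without SRF binding, 19 of the 34 were lower by 0.5 or more on the log2 scale with MRTFB dN Y305A/dPY, a size that 6.76% of all loci reached. Another 13 lay within 0.25 of 0, and 12 of those 13 stayed under 1 FPKM in all 4 such libraries, where a fall could hardly be seen. Of all loci tested, 6.05% were that low there. IGF1, INHBA and FHL1 belong to the latter, as do GKN2 and LY86. GKN2, a gastrokine of the stomach lining, stood at 55.1 and 44.8 FPKM in the MRTFB dN libraries and 17.9 and 15.7 in those of MRTFB dN dPY (-1.51 ± 0.14, adjusted p = 0.0198). LY86, the secreted partner of a leukocyte Toll-like receptor relative, stood at 6.20 and 8.11 FPKM against 0.723 and 0.802 (-2.20 ± 0.15, adjusted p = 0.0123). LY86 and GKN2 were listed at 0 in all 4 libraries without SRF binding and in all 4 vector libraries.

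**Figure D4:**
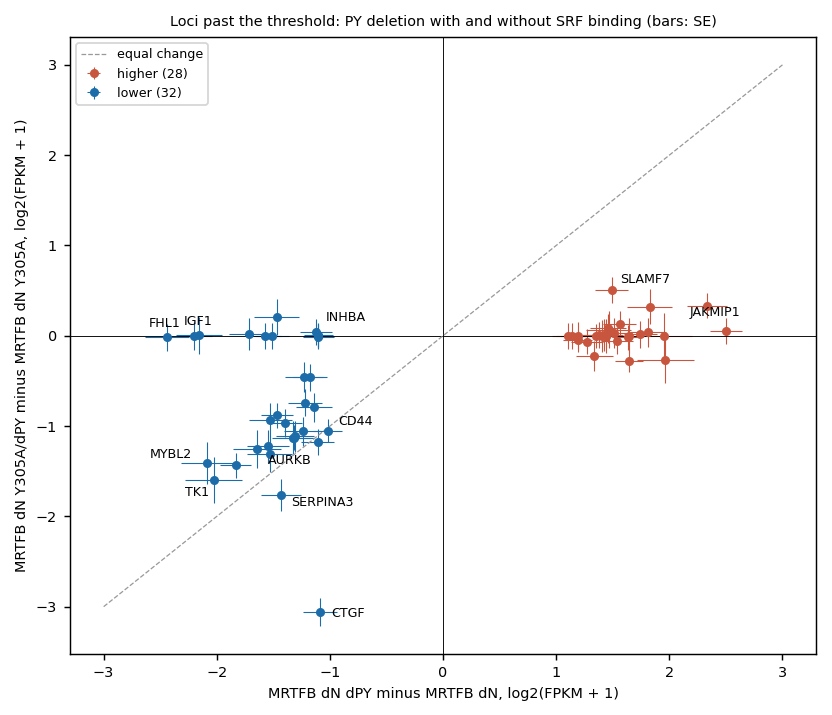
Fitted change of the loci past the threshold with the dPY deletion, as the difference in log2(FPKM + 1), where SRF binding is kept (horizontal) and where it is lost (vertical), with SE bars; MIR554 and MIR25 lie beyond the axis and are not drawn. On the vertical axis 23 of the 28 higher loci lie within 0.25 of 0, the lower loci split between 0 and a band below it, and CTGF lies lowest.

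Most loci that rose were low in cells whose MRTFB could not bind SRF. Of the 28, 20 stayed under 1 FPKM in all 4 libraries of MRTFB dN Y305A and MRTFB dN Y305A/dPY, beside 6.05% of all loci, and 16 in all 4 vector libraries, beside 3.75%. Their changes ran from 1.11 to 2.50 with a median of 1.48. Without SRF binding 1 of the 28, SLAMF7, was higher by 0.5 or more, and the median was 0.00. With the block within each background 66 of 144 higher loci (45.8%) and 50 of 222 lower loci (22.5%) were under 1 FPKM there. A locus near 0 in those libraries adds little residual to either fit and passes more easily, so these shares are no independent support.

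JAKMIP1, which encodes a protein binding Janus kinases and microtubules, rose most among loci with 4 values. It stood at 1.03 and 1.21 FPKM in the MRTFB dN libraries and 11.2 and 10.8 in those of MRTFB dN dPY (2.50 ± 0.14, adjusted p = 0.0041). JAKMIP1 was at or below 0.08 FPKM in every other MRTFB library and listed at 0 in the vector and YAP 5SA libraries. The difference from the effect without SRF binding passed its own test (2.45 ± 0.20, adjusted p = 0.0412). With levels near 0 there, this difference nearly equals the change with SRF binding kept. It did not pass with a pseudocount of 0.1, no filter, a filter of 3 FPKM, median-of-ratios scaling, no replicate block or zeros kept. For the change with SRF binding kept, JAKMIP1 stayed past the threshold in 16 of 18 alternative settings. Its RefSeq promoter is shown as that of the gene that rose most (chr4:6194620-6194869, minus strand, GRCh38.p14), with 1 GGAATG, starting 135 bases upstream, in capitals.
JAKMIP1: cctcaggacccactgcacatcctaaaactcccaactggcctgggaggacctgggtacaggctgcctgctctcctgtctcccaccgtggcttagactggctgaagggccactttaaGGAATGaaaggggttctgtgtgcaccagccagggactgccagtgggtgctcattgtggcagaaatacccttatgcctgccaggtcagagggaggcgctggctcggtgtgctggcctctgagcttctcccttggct

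Other loci that rose from a level already clear in MRTFB dN include membrane and signalling genes. SMCO4, a small membrane protein, stood at 21.7 and 19.7 FPKM in the MRTFB dN libraries and 71.3 and 62.2 in those of MRTFB dN dPY (1.64 ± 0.12, adjusted p = 0.0123), and stayed past the threshold in 12 of 18 settings. MEGF11, a membrane protein with EGF-like repeats, stood at 11.03 and 13.4 FPKM against 49.1 and 41.6 (1.81 ± 0.16, adjusted p = 0.0198). GIPC3, a PDZ protein of hair cells, stood at 7.35 and 8.49 FPKM against 26.9 and 26.3 (1.63 ± 0.14, adjusted p = 0.0198). In these 3 the replicates lay close and the groups well apart. RNF168, a ubiquitin ligase of the DNA damage response, stood at 16.5 and 15.8 FPKM against 45.5 and 46.7 (1.46 ± 0.16, adjusted p = 0.0265).

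The locus that carries both DCK, deoxycytidine kinase, and MOB1B, the coactivator of the LATS kinases, rose from 15.7 and 14.9 FPKM to 47.9 and 44.6 (1.54 ± 0.14, adjusted p = 0.0198). Its value cannot be assigned to either gene. It was the 1 of 19 measured Hippo genes that passed (beside 0.244% of all loci higher), and the 19 had a median of -0.05. ABCD2 (a peroxisomal fatty acid transporter), CA14 (a carbonic anhydrase), PTPN5 (a tyrosine phosphatase of neurons), FAM69C, PARP4, HIST2H2BA, NUTM2A-AS1 and the LIPE-AS1 locus rose by 1.44 to 1.97 from 4 FPKM or less. PARP4 and NUTM2A-AS1 each share their name with another locus, so these values cannot be assigned to the whole gene. SLAMF7, a lymphocyte surface receptor, stood at 11.3 and 7.05 FPKM against 37.6 and 19.1 (1.49 ± 0.14, adjusted p = 0.0198), with 15.1 and 7.21 with MRTFB dN Y305A and 21.9 and 10.7 with MRTFB dN Y305A/dPY. EPHX2, soluble epoxide hydrolase, stood at 6.33 and 8.17 FPKM against 45.5 in MRTFB dN dPY replicate 2 alone (2.33 ± 0.18, adjusted p = 0.0198). EPHX2 lies in the empty part of the table and shares its name with another locus.

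**Figure D5:**
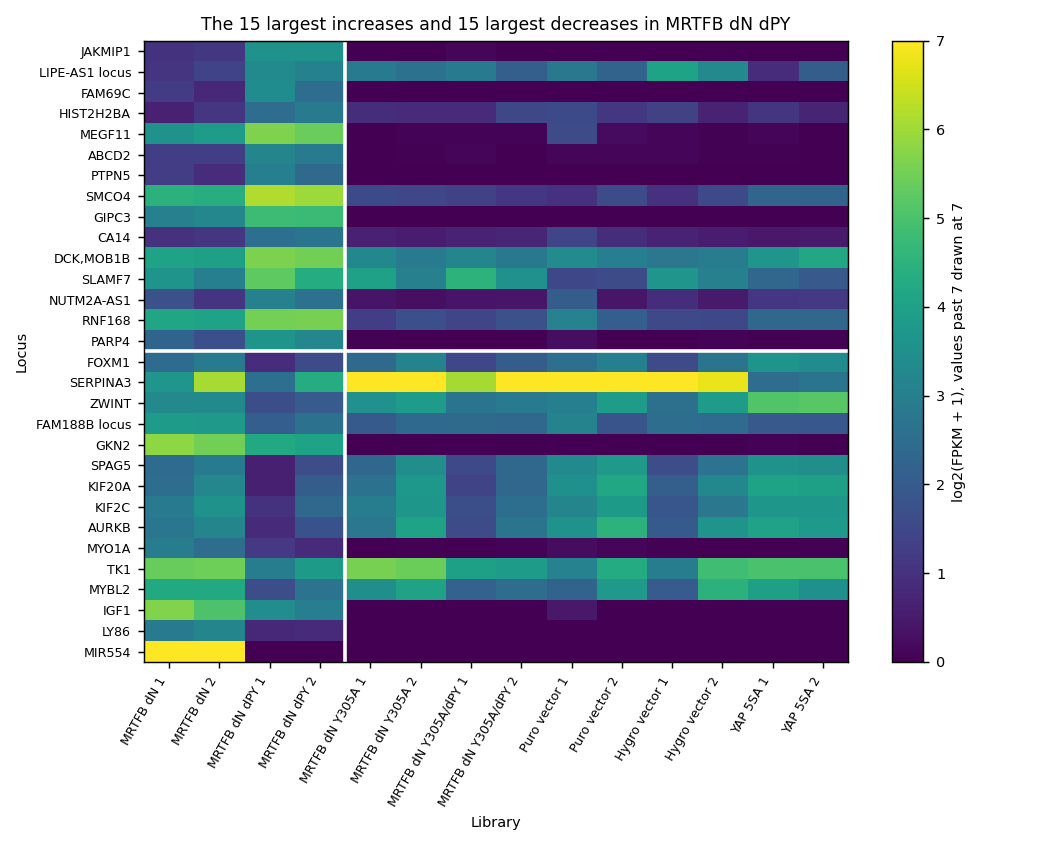
Level of the 15 largest increases (top) and 15 largest decreases (bottom) among loci past the threshold with all 4 values and a mean of at least 3 FPKM, as log2(FPKM + 1) in each of the 14 libraries, dark for 0 and light for 7 or more. JAKMIP1, FAM69C, ABCD2, PTPN5, GIPC3 and the called locus of PARP4 are dark outside the 4 libraries left of the vertical line, while TK1, MYBL2, AURKB and other genes of cell division in the lower block are present in all groups.

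Brush border and short RNA loci complete the named decreases. MYO1A, a myosin of intestinal microvilli, stood at 6.60 and 4.65 FPKM in the MRTFB dN libraries and 1.23 and 0.791 in those of MRTFB dN dPY (-1.71 ± 0.18, adjusted p = 0.0261). The locus of FAM188B, INMT and INMT-FAM188B stood at 13.7 and 12.8 FPKM against 3.29 and 5.16 (-1.47 ± 0.20, adjusted p = 0.0461). MIR554 stood at 733 and 575 FPKM in MRTFB dN and was listed at 0 in every other library. MIR25 stood at 4821 and 4099.8 FPKM in MRTFB dN and was listed at 0 in MRTFB dN dPY replicate 2. A locus this short can reach a high FPKM from few fragments, and poly(A) libraries do not measure mature miRNAs. In RefSeq MIR554 lies within TUFT1 and MIR25 within MCM7, which stood at 386 and 367 against 310.1 and 304 FPKM, and at 30.3 and 20.5 against 9.28 FPKM with no value in replicate 1. The mature sequences are given so that the loci can be identified, with the seed (bases 2 to 8) in capitals, from RefSeq (GRCh38.p14).
miR-554: gCUAGUCCugacucagccagu
miR-25-3p: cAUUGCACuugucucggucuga

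The test of the difference between both backgrounds called 3 loci (0.0261%), JAKMIP1 higher (0.00871%) and MIR554 and MIR25 lower (0.0174%) where SRF binding is kept. MIR554 and MIR25 were listed at 0 in all 4 libraries without SRF binding, so no fall could be seen there and their test restates the change with SRF binding. With the block within each background it called 45 (0.392%), 31 higher (0.27%) and 14 lower (0.122%), and 879 loci had an unadjusted p under 0.05. For the loci not called, a difference between both backgrounds was not shown.

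Levels of the called loci in YAP 5SA and Hygro vector libraries, which took no part in the comparison, were also read. Of the 34 lower loci 19 (55.9%) had both YAP 5SA libraries above both Hygro vector libraries, and 4 had both below. Over all loci tested these shares were 27.8% and 29.6%. Of the 28 higher loci 4 were above and 6 below (14.3% and 21.4%). The 19 include genes of cell division such as TK1, AURKB, KIF20A and BUB1, which are not separate observations. They also include EML6, near the floor at 0.0950 and 0.150 FPKM with YAP 5SA against 0.0950 and 0.0612. The Puro vector did not enter these counts, and the empty vectors differed from each other. With YAP 5SA, TK1 (30.6 and 30.9 FPKM) lay above both Puro vector libraries (7.58 and 18.7). AURKB (15.5 and 12.7) did not (10.9 and 21.9). Summed over the mitosis list, FPKM was 148.4 and 362.5 with Hygro vector, 365.5 and 569.8 with Puro vector, and 594 and 665 with YAP 5SA.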

How the data were processed

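RNA was read as poly(A)-selected, stranded libraries in paired reads on an Illumina NextSeq, per the labels' protocols. The authors deposited FPKM per locus in 1 table, whose tools were TopHat with Bowtie and Cufflinks with Cuffnorm, on hg19, per the submitters' processing notes. Versions, annotation and scaling are not given in the sources used here. FPKM are not counts, so no count test was run, and low loci carry more counting error than their FPKM shows.

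Values were taken as log2(FPKM + 1), and loci needed 1 FPKM in 2 of the 4 compared libraries. The 8 MRTFB libraries were fitted together with limma 3.58.1 (R 4.3.3): 4 groups plus the replicate number as a block, leaving 3 residual degrees of freedom, or 2 where MRTFB dN dPY replicate 1 has no value, variances squeezed along an intensity trend, two-sided tests, Benjamini-Hochberg adjustment over all 11476 loci. Every difference is on the log2(FPKM + 1) scale, which understates changes of low loci, and an error given with ± is the standard error. Replicate numbers were taken as pairs by the definition of the comparison. The 6 correlations of replicate differences between MRTFB groups ran from 0.36 to 0.80. The procedure was run on simulated data in which all 4 MRTFB groups shared the same replicate shift. In these libraries the shifts were less alike across the SRF change (r = 0.36 to 0.47), so the simulation cannot decide which replicate block is right.

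Of the 11476 loci 921 carry several gene names and 797 share a name with another locus, so values there cannot be assigned to 1 gene. Named genes are the factor genes, a fixed list of known targets, the 15 largest changes in each direction among loci past the threshold with a mean of 3 FPKM, up to 4 passing members of each gene list, and passing loci missing in replicate 1. TTK, CDK1, RRM2, CENPA, MKI67, PCNA, FST, IGFBP5, IGFL1, DAW1, MCM7 and TUFT1 are named in addition, after their values were seen. The members, the 35 gene lists (669 genes) and the tests were chosen with earlier results of these data known. Gene lists were described by counts and medians only. Promoter and miRNA sequences come from RefSeq (GRCh38.p14), matched by symbol: 22 of 29 genes of the higher loci, 27 of 36 of the lower loci, 28 of 40 YAP/TEAD targets, 21 of 25 mitosis genes and 22 of 26 replication genes matched a promoter.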

Additional observations from a re-analysis of the deposited data

Results flagged for a closer look

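The interaction test in limma, which compares the effect of the PY deletion with and without SRF binding, passed at 3 loci. JAKMIP1 rose with SRF binding kept and not without it, with a difference of 2.45 on the log2 scale (adjusted p = 0.0412), and was higher in 2 of 2 pairs. JAKMIP1 was at most 0.079 FPKM in all 4 libraries without SRF binding, so this difference nearly equals the change with SRF binding kept. MIR554 differed by -9.35 (adjusted p = 4.13e-05): it was listed at 733 and 575 FPKM in both MRTFB dN libraries and at 0 in each of the other 12. MIR25 differed by -12.08 (adjusted p = 9.49e-05), with 1 library in MRTFB dN dPY, and was also listed at 13566 FPKM in Puro vector replicate 2 and at 2958 in YAP 5SA replicate 1. Both miRNA loci were listed at 0 in all 4 libraries without SRF binding, where no fall could be seen, so their values restate the change with SRF binding and show no difference between backgrounds. Groups of 2 libraries are too small for a check of single outlying libraries.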

How the results depend on the processing

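Of 18 alternatives 17 were set out at the start and 1, the replicate block within each SRF background, was chosen after seeing the data. Counts are loci higher and lower in MRTFB dN dPY (28 and 34). They were 1 and 3 with a pseudocount of 0.1, 5 and 5 with no filter, 4 and 3 with no replicate block, 168 and 235 in the 4 libraries alone, 26 and 15 in all 14 libraries, 1 and 2 with the zeros of the empty stretch kept, and 144 and 222 with the replicate block within each SRF background. A filter of 3 FPKM, median-of-ratios scaling and no intensity trend left both within 1.5 times. Leaving out 1 library gave 0 to 6 higher and 2 to 6 lower. Without SRF binding the lower count (3) was 1 with no replicate block, 0 in all 14 libraries and 0 with zeros kept, and 84, with 13 higher, under the block within each background; leaving out 1 library gave 0 to 2 higher and 0 to 6 lower. The difference between backgrounds (1 higher, 2 lower) had 0 higher with the pseudocount of 0.1, no filter, the 3 FPKM filter, median-of-ratios scaling, no replicate block or zeros kept, 3 higher in all 14 libraries, and 31 and 14 under the block within each background; leaving out 1 library gave 0 to 2 higher and 1 to 4 lower. The cause of these shifts was not tested. EPHX2 turned to -0.27 (adjusted p = 0.963) with zeros kept, by construction, since its MRTFB dN dPY replicate 1 value is in the empty stretch. The median of the YAP/TEAD targets ran from -0.30 without MRTFB dN dPY replicate 2 to 0.0089 without MRTFB dN replicate 2. Of the 38 named loci past the threshold, 2 to 6 stayed past it when 1 library was left out, 7 with no replicate block and 38 with the block within each background. Absolute depth is unknown, so counting error behind low FPKM is not known.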

Other observations

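Interferon response genes differed in opposite directions in the 2 pairs. Of 25 listed genes 22 were tested and 21 had all 4 values, with a median of 0.69 in pair 1 and -1.03 in pair 2. Summed FPKM was 9030 and 3993 with MRTFB dN and 15590 and 984 with MRTFB dN dPY, so replicates differed more than groups, and none passed in limma (0 at an unadjusted p under 0.05). Without SRF binding all 22 had a positive difference, with a median of 1.22 and again no call.

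Genes of protein synthesis and lipid synthesis leaned lower without a call. All 18 ribosomal protein genes were negative, with a median of -0.25 (-0.65 without SRF binding), as were all 19 MYC and ribosome biogenesis genes, with a median of -0.30 (-0.35). Of the ribosomal protein genes 15 had all 4 values, with medians of -0.43 in pair 1 and -0.10 in pair 2, and 9 were lower in both pairs. The medians of the MYC and ribosome biogenesis genes were -0.31 and -0.20, and 13 of 16 were lower in both pairs. Of 22 cholesterol and fatty acid synthesis genes 20 were negative, with a median of -0.38.

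Olfactory receptor loci were among those that rose, chosen here after their values were seen. OR52K1 stood at 51.0 and 55.8 FPKM with MRTFB dN and 143 and 133 with MRTFB dN dPY at 1 locus and at 10.1 and 12.1 against 25.9 and 25.3 at another. OR52K2 stood at 20.4 and 19.5 FPKM against 47.3 and 46.3. CDH16, a kidney cadherin, was the source of nearly all FPKM of the kidney marker list, at 11.1 and 6.78 FPKM against 32.8 and 19.8, and missed the threshold (1.45 ± 0.24, adjusted p = 0.074).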
